A study of Mus musculus with 399 samples.

Results

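The liver of C57BL/6J (B6) mice kept on chow was compared between 5 and 20 weeks of age in 24 of the 399 libraries of the series. These were all liver libraries of the B6 chow groups, 12 at each age, with 6 from females and 6 from males, each from a different mouse by its label. The series profiled liver, fat, pancreas and soleus muscle of B6 and of TH (TALLYHO/Jng, an inbred strain that becomes obese and, in males, diabetic) on chow or a high-fat diet. All 24 mice here were inbred B6 without a named engineered allele, were weaned at 4 weeks and had eaten chow for 1 week (the 5-week groups) or 16 weeks (the 20-week groups). The 5-week mice were therefore recently weaned and peripubertal, and age, time on the diet and sexual maturation cannot be told apart in this design. The hour of collection and the library batches were not given in the sources used here.

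Mouse liver at weaning is still growing: hepatocytes divide, supporting cells lay down matrix, and a remnant of the fetal programme is being shut off. From puberty, pulses of growth hormone in males and a steadier level in females, set in turn by sex steroids, drive large sex differences in the genes of steroid, drug and pheromone-binding proteins. The 5 to 20 week interval spans the end of growth and the establishment of these differences.

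Library totals were 7260685 to 17542373 counted reads with a median of 11869663, and the 10 most counted genes took 9.18% to 11.71% of them. Totals in females were 12451057 to 17542373 at 5 weeks and 11168764 to 13357996 at 20 weeks. Those in males were 8285306 to 12267829 and 7260685 to 10269841, so the sexes did not overlap at either age. Levels below are CPM, counts scaled to a common library total after TMM normalisation, given as the lowest, median and highest of the 6 mice of a group. Albumin (Alb), the main plasma protein made by hepatocytes, stood at 12489 to 22653 CPM. Xist was at 758 CPM or more in every female and at 3.94 CPM or less in every male, and Ddx3y, Uty, Eif2s3y and Kdm5d on the Y chromosome were at 18.3 CPM or more in every male and 0.356 CPM or less in every female, so each library matched its labelled sex and tissue. Some libraries also held RNA of neighbouring tissue. The 13 skeletal muscle markers summed to 21.7 to 724 CPM in 7 libraries (females at 5 weeks, replicates 1 and 6; females at 20 weeks, replicates 2, 3, 4 and 6; males at 5 weeks, replicate 4) and to 2.39 CPM or less in the other 17. The 12 exocrine pancreas markers summed to 603 and 87.4 CPM in replicates 4 and 3 of the 20-week males, 119 and 69.4 CPM in replicates 5 and 6 of the 5-week females, 68.2 and 27.0 CPM in replicates 6 and 4 of the 5-week males, and 9.94 CPM or less in the other 18 libraries. The 6 adipocyte markers summed to 23.5 and 15.5 CPM in replicates 3 and 4 of the 20-week females. They summed to 22 CPM in replicate 6 of the 5-week males and to 9.01 CPM or less in the other libraries. Replicate 1 of the 20-week females deviated most from its group, by 0.457 (root mean square, log2) against a median of 0.267 over the libraries. Fits without the 7 muscle-bearing libraries kept only 2 females at 20 weeks, this replicate 1 and replicate 5. Whether calls lost in those fits follow from muscle RNA or from fewer mice was not tested.

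Between 5 and 20 weeks, 928 genes rose and 923 fell of 16007 tested, with sex as a covariate (edgeR's quasi-likelihood test, Benjamini-Hochberg adjusted p under 0.05, the threshold for every gene described as called, risen or fallen). That is 11.6% of the genes tested, 5.8% higher and 5.77% lower. Few changes were large: 236 called genes, 1.47% of those tested, changed at least 2-fold, 123 up and 113 down. For 37 genes, 0.231% of those tested, the 12 libraries of one age did not overlap the 12 of the other, 19 higher (0.119%) and 18 lower (0.112%) at 20 weeks. Changes are given as log2 fold changes, 20 minus 5 weeks, with their standard error after the ± sign, and the median over all genes tested was 0.014. Within males 866 genes rose and 718 fell (9.9% in all, 5.41% and 4.49%), and within females 725 rose and 874 fell (9.99%, 4.53% and 5.46%).

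Hspb1, a small heat shock protein, went from 2.43, 3.23 and 4.26 to 8.33, 19.2 and 21.3 CPM in females and from 0.755, 3.07 and 4 to 9.6, 12.4 and 16 CPM in males. The ages did not overlap in either sex (2.23 ± 0.17, adjusted p = 1.61e-09). Plekhb1, a membrane-associated pleckstrin homology protein, rose by 1.79 ± 0.10 (adjusted p = 3.7e-12), from a median of 7.49 to 22 CPM in females and of 7.65 to 26.7 CPM in males, also without overlap. Pclo, which encodes the presynaptic scaffold piccolo, rose by 2.16 ± 0.20, from medians of 0.996 and 1.15 CPM in females and males to 7.24 and 3.52 CPM. Srgap3, a SLIT-ROBO signalling protein, rose by 2.44 ± 0.25, and its ages overlapped in females, where replicate 1 at 20 weeks had 4.45 CPM and the highest 5-week library 5.3 CPM.

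Tiam2, a Rac exchange factor, rose to a median of 9.84 CPM in females and 23.2 CPM in males from 3.9 and 3.88 CPM, and the male minus female difference in the age change was called (1.24 ± 0.20, adjusted p = 0.000711). Serpine2, a serine protease inhibitor also known as protease nexin, rose in males (3.33 ± 0.30), from 1.24, 2.03 and 3.09 to 15.7, 22 and 26.2 CPM, and by 1.22 ± 0.28 in females. In males the ages did not overlap, in females they did. Serpinb1a, an inhibitor of neutrophil proteases, rose by 1.82 ± 0.18, and its female level at 20 weeks (37.8, 41.3 and 44 CPM) stood above that of males (3.65, 9.05 and 16.3 CPM). Females were already higher at 5 weeks, at 6.48 to 14.5 against 2.29 to 4.97 CPM. Its age change was not called different between the sexes (-0.31 ± 0.36, adjusted p = 0.669). Csad, the enzyme that makes the taurine precursor hypotaurine from cysteine sulfinate, rose by 1.78 ± 0.17, from a median of 40.9 to 146 CPM in females and of 92.9 to 273 CPM in males. Nr4a1, an immediate early nuclear receptor, rose by 1.92 ± 0.40 over both sexes (adjusted p = 0.00194; 1.37 ± 0.54 in females, adjusted p = 0.106), with 28.7 CPM in replicate 5 of the 20-week males and 2.15 to 8.32 CPM in the other 5.

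A pair of sulfotransferases rose in females. Sult2a7 went from 1.95, 3.85 and 4.46 to 18.6, 27.9 and 41.8 CPM in females (3.12 ± 0.24, adjusted p = 7.16e-09), whereas in males it was at 0.343 to 2.14 CPM at 5 weeks and 0.73 to 3.2 CPM at 20 weeks. The female libraries did not overlap between ages and the male ones did, and the male minus female difference in the age change was called (-2.76 ± 0.44, adjusted p = 0.000526). Sult3a2 rose in females by 3.37 ± 0.33, from 0.142, 0.766 and 1.19 to 3.93, 6.21 and 12.8 CPM, and was at 0.143 CPM or less in every male. With the age change averaged over separate means for each sex, Sult3a2 was not called (adjusted p = 0.401).

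The largest fall was that of Igf2bp3, an RNA-binding protein of fetal tissues that binds Igf2 mRNA. It was at 3.21, 5 and 6.13 CPM in 5-week females and 3.3, 4.67 and 5.89 CPM in 5-week males, and at 0.0855, 0.279 and 0.421 CPM and 0, 0.0545 and 0.16 CPM at 20 weeks. The ages did not overlap, and the fold was 23.1 (-4.53 ± 0.24, adjusted p = 1.29e-12). Pls1, an actin-bundling plastin of microvilli, fell by 2.89 ± 0.21 on the log2 scale, from medians of 8.48 and 4.61 CPM in females and males to 1.2 and 0.513 CPM, again without overlap. Lpl, lipoprotein lipase, which liver makes mainly early in life, fell from 54.9, 66.5 and 84.3 to 8.04, 21.8 and 32.7 CPM in females and from 52.3, 89.2 and 209 to 20.2, 31.7 and 55.4 CPM in males (-1.62 ± 0.22, adjusted p = 1.9e-05). Its ages overlapped in males only by a few CPM, between 52.3 and 55.4. The 209 CPM was in replicate 6, which carried adipocyte markers, and the other 5-week males had 52.3 to 96 CPM. The highest 20-week females, replicates 3 and 4 (32.7 and 28.1 CPM), carried these markers too.

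Further falls reached genes of acute phase and stress signalling and of iron and steroid metabolism. Lcn2, the acute phase siderophore-binding protein lipocalin 2, fell by 1.63 ± 0.23, and Ddit4, a stress-induced inhibitor of mTORC1, by 1.49 ± 0.24, each with similar values in both sexes. Eif4ebp3, a translation initiation inhibitor, fell by 1.84 ± 0.26, from medians of 10.2 and 11.7 CPM in females and males to 2.45 and 3.08 CPM. Cyp17a1, the steroid 17-alpha-hydroxylase, fell from a median of 174 to 65.2 CPM in females and of 26.1 to 4.75 CPM in males (-1.58 ± 0.30, adjusted p = 0.001), with overlap in both sexes. Hamp2, a hepcidin paralogue, fell in males from 57.6, 99 and 179 to 11.6, 18 and 32.8 CPM (-2.48 ± 0.30), while females had 324 to 510 CPM and 112 to 421 CPM (-0.62 ± 0.27, adjusted p = 0.15). Akr1b7, an aldo-keto reductase, fell by 1.76 ± 0.50 over both sexes (adjusted p = 0.0221, and 0.0761 without the 7 muscle-bearing libraries). Its change in females was -0.78 ± 0.49 (adjusted p = 0.327), and in males it fell from 0.572, 1.66 and 14.5 CPM to 0.252 CPM or less. The 14.5 CPM was in replicate 6, which carried adipocyte markers, and the other 5-week males had 0.572 to 1.9 CPM.

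**Figure D1:**
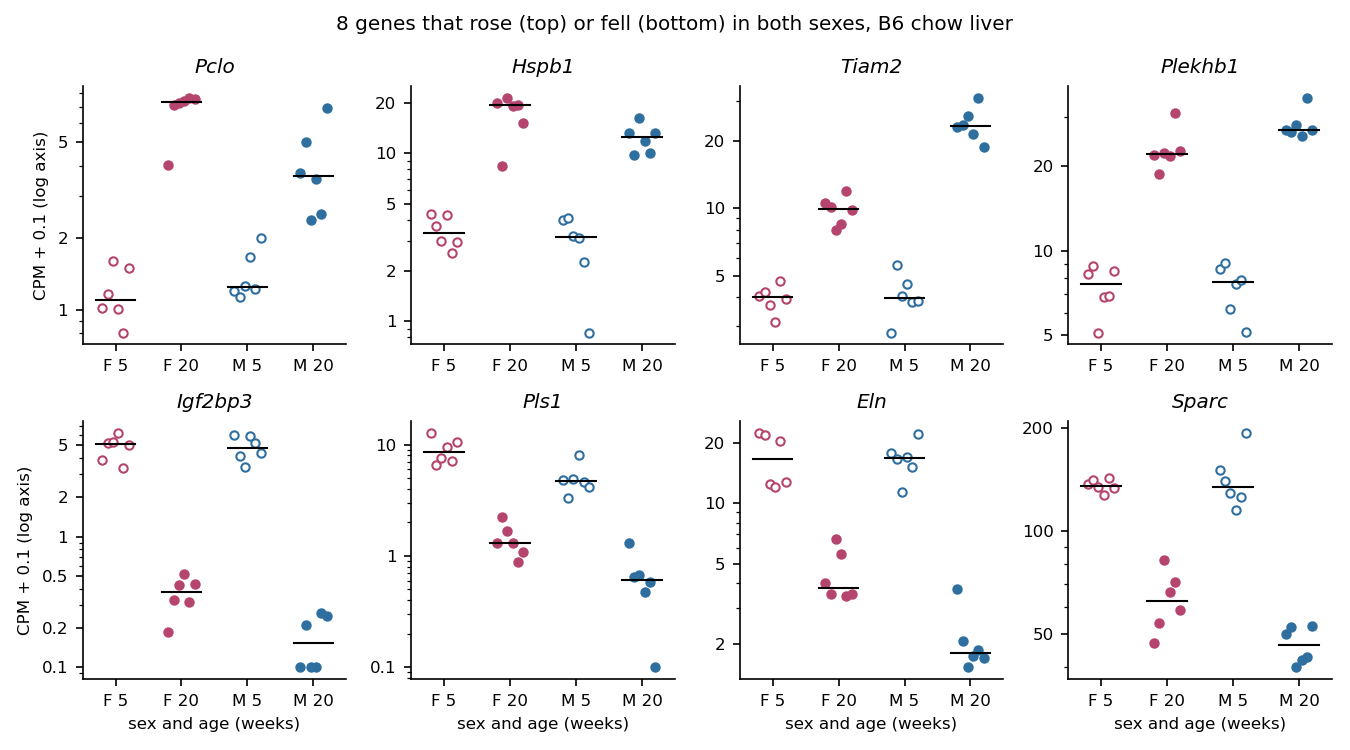
CPM + 0.1 on a log axis for 4 genes that rose (top) and 4 that fell (bottom); each point is 1 mouse, open at 5 weeks and filled at 20 weeks, females (F) in red and males (M) in blue, with the group median as a line. The 12 libraries at 20 weeks lie on one side of the 12 at 5 weeks for all 8 genes.

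Of 20 tested mitosis genes, which build and run the spindle and its checkpoint, 18 fell and none rose, beside 5.77% of all genes that fell; the median of the list was -1.19. Cdc20, which activates the anaphase-promoting complex, was at 0.279, 1.75 and 3.05 CPM in 5-week females and 0.0855, 0.613 and 0.929 CPM at 20 weeks, and in males at 0.901, 3.04 and 5.37 and then 0.143, 0.378 and 0.537 CPM. The male ages did not overlap and the female ages did, and the change over both sexes was -2.20 ± 0.38 (adjusted p = 0.000296). The mitotic kinase Cdk1 fell by 1.19 ± 0.26, its cyclins Ccnb1 by 1.66 ± 0.44 and Ccnb2 by 1.18 ± 0.33, all from medians of 2.79 CPM or less. The fall of Ccnb2 was not called without the 7 muscle-bearing libraries (adjusted p = 0.101) or with all 16 liver groups (0.068).

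Within males 18 of the 20 mitosis genes fell (4.49% of all genes fell in males), with a median of -2.09, and within females 3 fell (5.46% of all genes), with a median of -0.78. The female count was 0 without replicate 3, and 1 without replicate 2, of the 5-week females, 5 without replicate 5 of the 20-week females and 0 without the 7 muscle-bearing libraries. Mki67, the antigen of cycling cells, went from 8.9, 11.6 and 25.2 to 1.92, 2.64 and 3.57 CPM in males without overlap, and was at 2.93, 6.93 and 11.3 and then 1.71, 4.68 and 8.5 CPM in females. A difference between the sexes in the age change was called for 2 of the 20, Mki67 (-1.94 ± 0.52, adjusted p = 0.0271) and Top2a (-1.92 ± 0.55, adjusted p = 0.0393), the DNA topoisomerase of dividing cells, beside 2.21% of all genes lower; the count was 4 without replicate 1 of the 20-week females. The 20-week females were split: Mki67 was at 1.71 and 2.29 CPM in replicates 1 and 2 and 3.31 to 8.5 CPM in replicates 3 to 6. Top2a was at 0.513 and 0.687 CPM in the former and 2.19 to 4.14 CPM in the latter. The part of this split in the sex difference was not tested. Leaving out replicate 3 of the 20-week females ended the call for Mki67 (adjusted p = 0.0616), and leaving out any of 14 of the 24 libraries ended that for Top2a (adjusted p up to 0.0762). Neither was called without the 7 muscle-bearing libraries (adjusted p = 0.16 and 0.174), with neighbouring tissue covariates (0.0755 and 0.11) or with all 16 liver groups in the fit (0.164 and 0.156).

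Of 20 DNA replication genes 8 fell and none rose, beside 5.77% of all genes that fell, with a median of -0.33. Mcm6, a subunit of the replicative helicase, went from 11, 13 and 17.4 to 4.14, 4.55 and 5.25 CPM in males and from 5.78, 9.19 and 12.6 to 2.65, 5.02 and 6.72 CPM in females (-1.21 ± 0.16, adjusted p = 1.33e-05). Rrm2, a subunit of ribonucleotide reductase, fell by 1.03 ± 0.14, by about as much in females (-0.98 ± 0.20) as in males (-1.09 ± 0.21). Cdkn1a, the p21 inhibitor of cyclin-dependent kinases, fell in males from 3.83, 7.62 and 13 to 1.12, 1.86 and 3.21 CPM, and in females was at 1.78 to 5.64 CPM and then 1.03 to 12.3 CPM. Its age change differed between the sexes (-2.74 ± 0.61, adjusted p = 0.00925). It was not called without the 7 muscle-bearing libraries (adjusted p = 0.13), with the tissue covariates (0.07) or with all 16 liver groups (0.0527).

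The promoters of the mitosis genes were read for elements of genes transcribed in G2 and M phase, the CCAAT box and the cell cycle homology region (CHR, here TTTGAA). The 100 bases just upstream of the RefSeq start (GRCm38.p6) are shown 5′ to 3′ for 4 members that fell, with CCAAT or TTTGAA, on either strand, in capitals.
Cdc20 (chr4:118437344-118437443, minus strand): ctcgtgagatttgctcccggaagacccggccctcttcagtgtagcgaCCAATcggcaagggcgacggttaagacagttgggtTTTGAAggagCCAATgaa
Cdk1 (chr10:69352913-69353012, minus strand): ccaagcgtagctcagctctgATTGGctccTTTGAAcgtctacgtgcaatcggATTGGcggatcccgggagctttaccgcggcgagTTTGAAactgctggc
Ccnb1 (chr13:100786487-100786586, minus strand): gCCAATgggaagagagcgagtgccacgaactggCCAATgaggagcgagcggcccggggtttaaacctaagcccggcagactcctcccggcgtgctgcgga
Ccnb2 (chr9:70421555-70421654, minus strand): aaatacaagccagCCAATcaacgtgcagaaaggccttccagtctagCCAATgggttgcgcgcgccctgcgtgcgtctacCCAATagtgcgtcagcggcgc
Each stretch held at least 2 CCAAT boxes, 3 in Ccnb2, and TTTGAA occurred in Cdc20 and Cdk1 alone. Over 250 bases upstream, CCAAT was found in 12 of the 14 fallen mitosis genes with a promoter in the table (14 of 18), against 37.5% of the 27025 genes there, and TTTGAA in 7 of 14, against 18.3%. In the whole mitosis list, fallen or not, CCAAT was found in 14 of 16 genes with a promoter and TTTGAA in 8 of 16. The shares therefore describe the list, and a link to the fall with age was not tested. The motifs do not overlap each other, and a match describes these letters only.

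Genes of the extracellular matrix fell as well. Of 29 tested, 18 fell and none rose, beside 5.77% of all genes that fell, and the median was -0.62. Eln, which encodes elastin, was at 12, 16.4 and 22.4 CPM in 5-week females and 11.3, 16.7 and 22 CPM in 5-week males, and at 3.36, 3.69 and 6.52 and 1.43, 1.7 and 3.63 CPM at 20 weeks. The ages did not overlap and the fall was 5.21-fold (-2.38 ± 0.19, adjusted p = 2.42e-09). The fibrillar collagen genes Col3a1 (-1.56 ± 0.16), Col1a1 (-1.53 ± 0.17) and Col1a2 (-1.41 ± 0.14) fell to a similar degree, Col3a1 from medians of 108 and 105 CPM in females and males to 47 and 25.5 CPM. Sparc, a collagen-binding glycoprotein, fell from 127, 135 and 143 to 46.8, 62.5 and 82.2 CPM in females and from 115, 134 and 194 to 39.8, 46.3 and 52.7 CPM in males (-1.35 ± 0.10, adjusted p = 7.74e-10). Within males 19 of the 29 fell (4.49% of all genes) and within females 8 (5.46%), and the age change was more negative in males for 2 (2.21% of all genes). That last count was 12 without replicate 1 and 4 without replicate 2 of the 20-week females, and 4 with DESeq2. The 8 in females became 13 with the neighbouring tissue covariates.

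Stellate cells make much of the liver's matrix. Of 12 stellate cell markers 0 were called over both sexes by edgeR or DESeq2, and 1 had an unadjusted p under 0.05. Within females, where 4.53% of all genes rose, 2 of these markers rose (6 without replicate 1 of the 20-week females). Their summed level had medians of 351 and 476 CPM in females and of 286 and 286 CPM in males at 5 and 20 weeks. Their part in the fall of matrix genes was not tested. In bulk tissue, fewer cells of a type and less RNA per cell cannot be told apart.

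**Figure D2:**
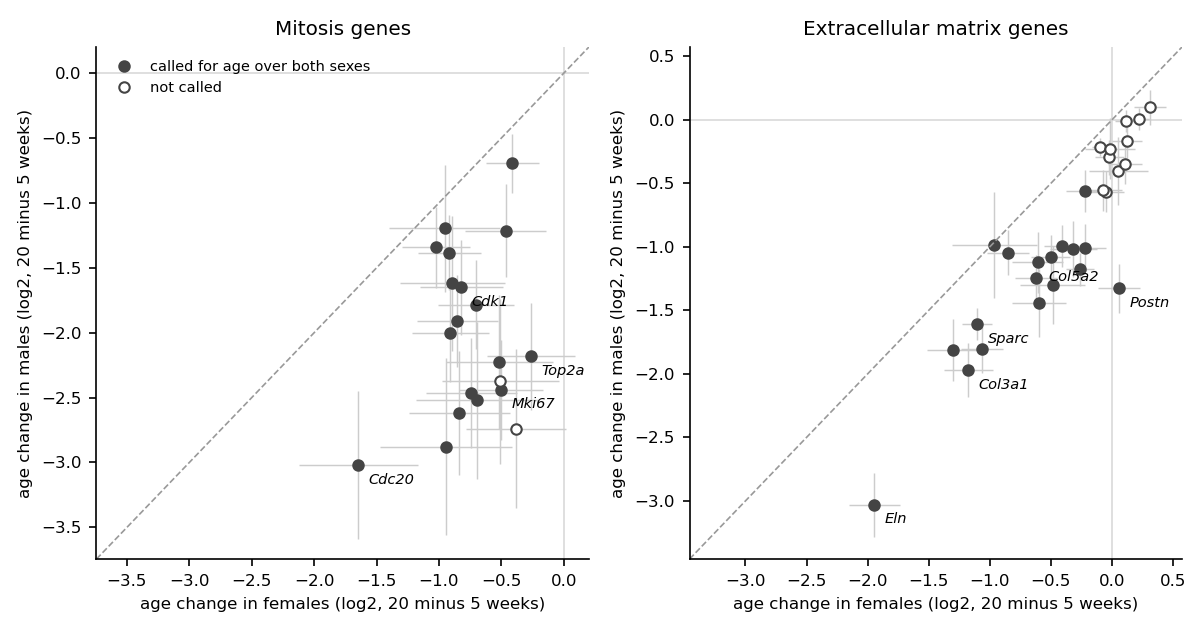
Age change in females (x) and males (y), log2 fold change with standard errors as bars, for 20 mitosis and 29 extracellular matrix genes; filled points were called over both sexes and the dashed line marks equal change. Most points lie below the line, with medians of -0.78 in females and -2.09 in males for mitosis genes.

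Among fetal liver genes 2 of 8 tested fell, Igf2bp3 and Lpl, and none rose, beside 5.77% of all genes that fell. Afp, alpha-fetoprotein, was at 1.8, 2.14 and 2.49 CPM in 5-week and 1.57, 2.37 and 3.67 CPM in 20-week females, and at 1.82, 2.09 and 2.59 and 1.17, 1.83 and 2.28 CPM in males, so the ages overlapped. H19, an imprinted non-coding RNA of fetal liver that skeletal muscle also makes, was not called over the 24 libraries (-0.78 ± 0.90, adjusted p = 0.643). It was at 0.458 to 48.2 CPM in the 4 muscle-bearing libraries at 20 weeks and at 0 to 0.929 CPM in the other 8, and at 9.87 to 29.4 CPM in the 3 at 5 weeks against 0.229 to 26.6 CPM in the other 9. Without the 7 muscle-bearing libraries it was called lower (adjusted p = 0.017). Of 13 imprinted genes, Grb10, an adaptor that restrains insulin and IGF receptors, fell by 0.78 ± 0.15, and Impact, a translational regulator, rose by 0.62 ± 0.07. These single calls are near the shares over all genes, 5.77% lower and 5.8% higher. The count of imprinted genes that rose was 3 without replicate 3 of the 20-week females and 4 without replicate 6 of the 20-week males.

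In the growth hormone and IGF axis 3 of 21 genes rose and 1 fell, beside 5.8% and 5.77% of all genes, so the single fall is near the share over all genes. Igf1, the growth factor that liver secretes, was at 423, 634 and 702 and then 503, 621 and 772 CPM in females and at 642, 721 and 792 and then 555, 632 and 781 CPM in males, so the ages overlapped in both sexes. Igfbp3, its main carrier in plasma, fell from 38.3, 42.3 and 54.1 to 16.6, 19.2 and 31 CPM in females and from 35.4, 41.1 and 48 to 12.2, 15.1 and 22 CPM in males. The ages did not overlap in either sex (-1.18 ± 0.11, adjusted p = 4.55e-08). Among the risen genes were the insulin receptor substrate Irs1 (0.48 ± 0.13) and the binding protein Igfbp2 (0.34 ± 0.10). Prlr, the prolactin receptor, rose in females (0.60 ± 0.14) and fell in males (-0.84 ± 0.15) (difference -1.44 ± 0.20, adjusted p = 0.000154), and Esr1, the oestrogen receptor alpha, rose in females (0.72 ± 0.17), with -0.37 ± 0.18 in males (difference -1.08 ± 0.24, adjusted p = 0.0102, but 0.235 without the 7 muscle-bearing libraries and 0.0534 with the tissue covariates).

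Over all genes tested 5.8% rose and 5.77% fell, for comparison with the marker lists that follow. Of 9 B and plasma cell markers, the immunoglobulin genes Igkc (1.31 ± 0.22), Jchain (1.31 ± 0.23) and Ighm (0.74 ± 0.19) rose, and no member fell. Igkc was at 2.21, 2.81 and 5.09 and then 5.63, 6.96 and 12.4 CPM in females, without overlap, and at 2.42, 2.69 and 4.51 and then 3.36, 6.25 and 14.6 CPM in males, with overlap. Of 11 monocyte and dendritic cell markers, 3 MHC class II genes rose, H2-Ab1 (0.79 ± 0.09), H2-Aa (0.75 ± 0.09) and Cd74 (0.78 ± 0.09). Of 6 erythroid markers the 4 globin genes fell, Hba-a1 by 1.12 ± 0.28 and Hbb-bs by 1.04 ± 0.25, and the list summed to medians of 949 and 510 CPM in females and of 1193 and 497 CPM in males at 5 and 20 weeks. The globin pairs are near-identical copies, so the split between them is uncertain, and without the 7 muscle-bearing libraries none of the 4 was called (adjusted p = 0.151 for Hba-a1 and 0.114 for Hbb-bs). Of 12 Kupffer cell markers 0 were called over both sexes by edgeR or DESeq2, and 0 had an unadjusted p under 0.05. Of 16 sinusoidal endothelial markers only Lyve1 fell (-0.99 ± 0.27), near the share over all genes, and of 9 cholangiocyte markers only Sox9 rose (1.12 ± 0.18).

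**Figure D3:**
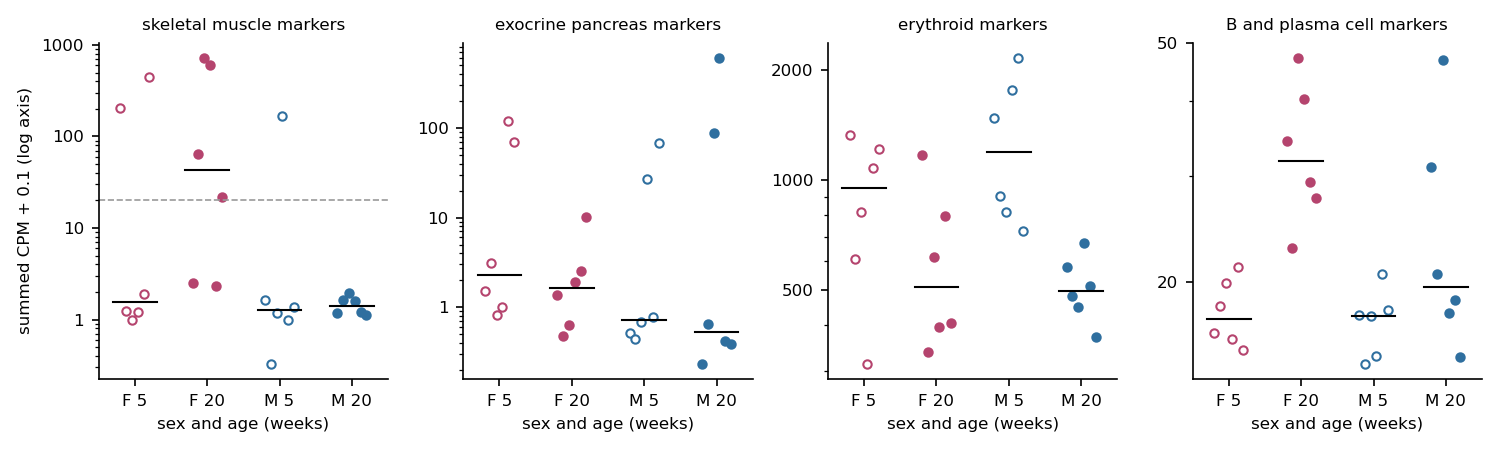
Summed CPM + 0.1 (log axis) of 4 marker lists in each library, open at 5 weeks and filled at 20 weeks, with group medians as lines; the dashed line marks 20 CPM. Muscle markers exceed it in 7 libraries, none of them a 20-week male, and the erythroid sum has a lower median at 20 weeks in both sexes.

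Of 26 fatty acid oxidation genes 8 rose and 1 fell (median 0.13), beside 5.8% and 5.77% of all genes, among them Pdk4, the kinase that restrains pyruvate oxidation (1.70 ± 0.38). Pdk4 was at 4.39 to 9.41 CPM in 5-week females, and at 20 weeks at 4.19 and 5.12 CPM in replicates 1 and 2 and 53 to 61 CPM in the other 4, so the female group was split. Replicates 1 and 2 also stood apart in Nr4a1, at 1.11 and 0.993 against 3.79 to 5.9 CPM in replicates 3 to 6. In Cyp17a1 they had 127 and 164 against 28.5 to 73.6 CPM. Males had 5.82 to 10.4 CPM of Pdk4 at 5 weeks and 8.42 to 15.9 CPM at 20 weeks. Lpin1, the phosphatidic acid phosphatase lipin 1, fell by 1.47 ± 0.28, with 3 of 12 lipid droplet genes rising and 3 falling. Of 25 cholesterol synthesis genes 3 rose and none fell, beside 5.8% of all genes that rose, Hmgcs1, the synthase of HMG-CoA, by 0.61 ± 0.17. The count was 5 without replicate 6 of the 5-week females and 1 without the 7 muscle-bearing libraries, where Hmgcs1 was not called (adjusted p = 0.0581).

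Oxidative phosphorylation genes fell for 6 of 22, by 0.29 or less on the log2 scale (Cox5a, a cytochrome c oxidase subunit, -0.29 ± 0.07, adjusted p = 0.121 without the 7 muscle-bearing libraries). That count was 15 without replicate 1 of the 20-week females and 0 without the 7 muscle-bearing libraries. Of 16 coagulation genes 5 fell, beside 5.77% of all genes, the largest F11, coagulation factor XI (-0.61 ± 0.11).

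The sexes diverged over the interval. At 5 weeks 849 genes (5.3%) differed between male and female liver, 3.19% higher and 2.11% lower in males, and at 20 weeks 6109 (38.2%), 20.8% higher and 17.4% lower. The age change itself differed between the sexes for 908 genes (5.67%), 555 more positive in males (3.47%) and 353 more negative (2.21%). Of the 908, 398 were called for age in males alone, 300 in females alone and 45 in both with opposite signs, and 728 differed between the sexes at 20 weeks and not at 5. Library totals were lower in every male than in every female of the same age, so sex and library total cannot be told apart here. GC content moved with sex: the slope of log2 CPM on the GC fraction of genes had medians of -0.566 and -0.294 in females and of -1.54 and -2.14 in males at 5 and 20 weeks. At 20 weeks the slopes did not overlap, at -1.02 to 0.85 in females and -2.37 to -1.31 in males. With that slope as a covariate the count at 20 weeks was 3036, without the 7 muscle-bearing libraries it was 3398, and with summed muscle, pancreas and adipocyte markers as covariates 3404. For the age change that differed between the sexes, the last pair of fits called 234 and 311 genes.

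Of 23 tested genes known to be higher in male liver, 21 were already higher in males at 5 weeks (3.19% of all genes) and all 23 at 20 weeks (20.8%). The age change was more positive in males for 18, beside 3.47% of all genes (9 without the 7 muscle-bearing libraries). The medians of the list were an increase of 1.21 in males and -0.62 in females. Cyp4a12a, a fatty acid omega-hydroxylase, went from 157, 293 and 394 to 595, 647 and 695 CPM in males and from 1.28, 5.17 and 18.4 to 0, 0.782 and 0.928 CPM in females. Males and females thus moved apart without overlap between ages in either sex (difference 4.61 ± 0.61, adjusted p = 6.14e-05). Cyp4a12b, a near-identical copy with an uncertain share of reads, followed it (4.80 ± 0.57).

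Hsd3b5, a steroid-reducing enzyme, had medians of 174 and 198 CPM in males, whose ages overlapped, and fell in females from 1.53, 4.71 and 21.1 to 0.0715, 0.337 and 0.611 CPM without overlap (difference 4.64 ± 0.86, adjusted p = 0.0022). Mup20, the urinary pheromone protein darcin, rose in males from 1053 to 2540 CPM at 5 weeks to 4663 to 8754 CPM at 20 weeks (1.80 ± 0.26) and fell in females (-0.94 ± 0.26; difference 2.74 ± 0.36). Cyp7b1, the oxysterol 7-alpha-hydroxylase, rose in males from 23.4, 75.7 and 189 to 333, 397 and 435 CPM (2.19 ± 0.31), and females had 14.3 to 32.4 CPM (difference 2.03 ± 0.43, adjusted p = 0.00689, and 0.112 without the 7 muscle-bearing libraries). Susd4, a complement regulator, rose in males from a median of 14.6 to 65.4 CPM (difference 2.52 ± 0.31, adjusted p = 2.92e-05). Slco1a1, an organic anion transporter, was at medians of 448 and 408 CPM in males and fell in females from 70.1, 108 and 220 to 12.2, 28.2 and 47 CPM (-2.13 ± 0.32).

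Of 24 genes known to be higher in female liver, 19 were lower in males at 5 weeks (2.11% of all genes) and 23 at 20 weeks (17.4%). The age change was more negative in males for 10 (2.21% of all genes). Within males 12 fell (4.49% of all genes), and within females 3 rose (4.53%) and 3 fell (5.46%). The 3 falls in females became 1 when any of replicates 3, 4 and 6 at 20 weeks or 1, 3, 4 and 5 at 5 weeks was left out. Cyp2b9, a cytochrome P450 of female liver, was at 449, 561 and 640 and then 545, 643 and 720 CPM in females, and fell in males from 4.75, 19.3 and 130 to 0.63, 0.949 and 1.44 CPM (difference -5.60 ± 0.88, adjusted p = 0.000495). Only the males separated by age.

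Slc22a26, an organic anion transporter, fell in males from a median of 7.09 to 1.07 CPM, and its females had 86.7 to 152 and then 154 to 329 CPM (difference -4.34 ± 0.67). Cyp2b10, the P450 induced through the xenobiotic receptor CAR, fell in males from 45, 78.9 and 94.7 to 8.9, 16.3 and 27.6 CPM and was at 118 to 162 CPM in all 12 females (difference -2.19 ± 0.26, adjusted p = 2.55e-05). The differences of Hamp2 (-1.86 ± 0.40) and Akr1b7 (-4.31 ± 1.15, adjusted p = 0.0276) were called as well. That of Akr1b7 was not called without replicate 3 of the 20-week males (adjusted p = 0.0546) or without the 7 muscle-bearing libraries (adjusted p = 0.0991).

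**Figure D4:**
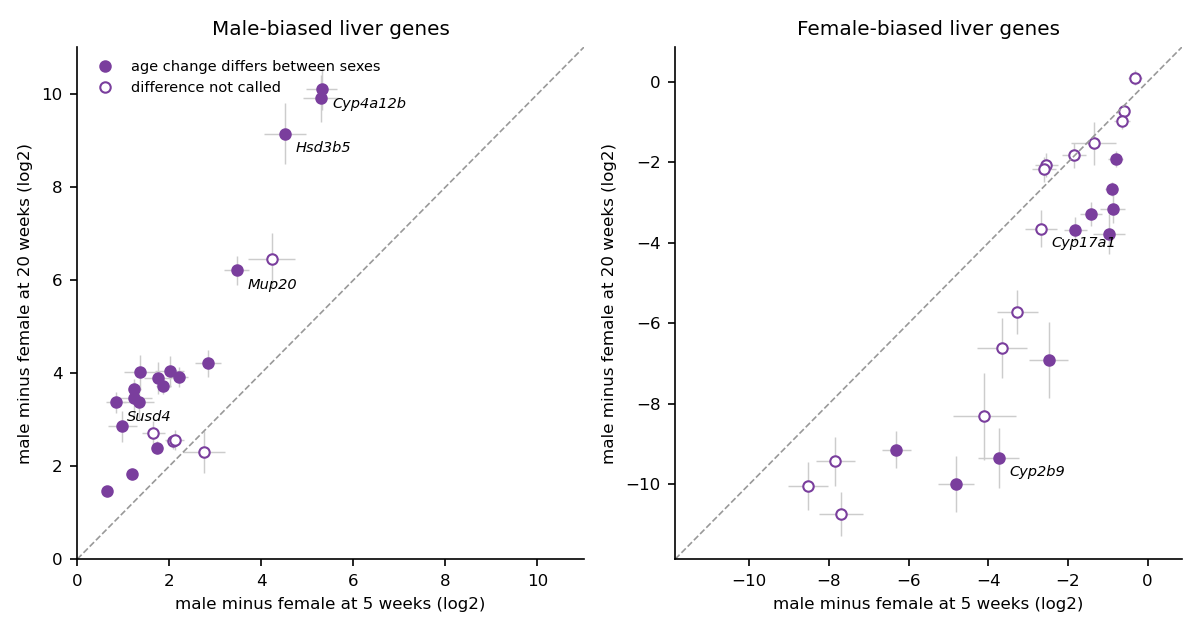
Male minus female difference (log2, standard errors as bars) at 5 weeks (x) and 20 weeks (y) for 23 male-biased and 24 female-biased genes; filled points had an age change that differed between the sexes and the dashed line marks equal differences. Male-biased points lie mostly above the line and female-biased points mostly below it, so the sex differences were wider at 20 weeks.

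The 5-week males were not uniform in these genes. Replicate 6 was the highest of the 6 males for 17 of the 24 female-biased genes and the lowest for 13 of the 24 listed male-biased genes, and replicate 5 was highest for 5 and lowest for 8; replicate 2 was highest for 17 of the male-biased genes. Replicates 5 and 6 had 130 and 71.5 CPM of Cyp2b9 and the other 4 had 4.75 to 22.1 CPM. Without replicate 6 the sex differences in age change remained called, at -5.37 for Cyp2b9, -3.51 for Mt2 and -3.01 for Akr1b7. Replicate 6 also carried pancreas markers at 68.2 CPM and adipocyte markers at 22 CPM, and their part in the result was not tested.

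Other genes moved in a sex-dependent way. Asns, asparagine synthetase, rose in males (1.29 ± 0.34) from 1.9, 3.88 and 9.57 to 5.13, 9.88 and 23.1 CPM and fell in females (-2.01 ± 0.50) from 0.696, 1.66 and 2.12 to 0.214, 0.285 and 0.593 CPM (difference 3.30 ± 0.60, adjusted p = 0.00219). Rad51b, a recombination repair gene, rose in females from 0.71, 0.849 and 1.14 to 1.22, 5.65 and 10 CPM (difference -4.24 ± 0.90, adjusted p = 0.00689). Mt2, a metal-binding metallothionein, fell in males from 4.76, 11.8 and 82.7 to 0, 1.31 and 3.28 CPM, and in females had 30.2 to 71.5 and then 28.1 to 70 CPM (difference -4.17 ± 0.90). Cyp8b1, the 12-alpha-hydroxylase that directs bile acid synthesis to cholic acid, fell in females from a median of 290 to 97.4 CPM (-1.32 ± 0.22) and had medians of 307 and 410 CPM in males (difference 1.80 ± 0.31).

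Of 23 interferon-response genes 14 fell in males (4.49% of all genes). In females 1 fell and 2 rose, near the shares over all genes (5.46% and 4.53%). The age change was more negative in males for 12, beside 2.21% of all genes. Usp18, which dampens interferon signalling, fell in males from 11.6, 13.2 and 16.6 to 4.09, 4.77 and 7.96 CPM without overlap, and females had 14.2 to 25.3 and then 9.65 to 20.3 CPM (difference -0.94 ± 0.25, adjusted p = 0.0235). Ifit1 (-1.20 ± 0.28) and Ifi44 (-1.83 ± 0.36), antiviral effectors, were called too. None of these 3 was called without the 7 muscle-bearing libraries (adjusted p = 0.0624, 0.375 and 0.104) or with all 16 liver groups (0.137, 0.162 and 0.0844). The 12 became 1 without the 7 muscle-bearing libraries, 1 with all 16 liver groups in the fit and 5 with the neighbouring tissue covariates. Of 20 endoplasmic reticulum chaperone genes 4 had a more positive change in males, beside 3.47% of all genes. Among them Dnajb9, a co-chaperone of the unfolded protein response, went from 28.3, 29.2 and 35.6 to 47.2, 91.7 and 124 CPM in males (difference 1.47 ± 0.26, adjusted p = 0.00167). The chaperone count was 1 without the 7 muscle-bearing libraries. It ranged from 1, among others without replicate 2, 3 or 6 of the 20-week females, to 7, without their replicate 5.

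Amy2a3, a pancreatic amylase gene with near-identical copies, had the highest sex difference in age change (7.40 ± 2.24, adjusted p = 0.05 after rounding). It was at 194 CPM in replicate 4 of the 20-week males, the library with the highest pancreas marker sum, and at 32.1 and 18.4 CPM in the pancreas-bearing replicates 5 and 6 of the 5-week females, and leaving out any of 19 of the 24 libraries ended the call. With neighbouring tissue covariates its adjusted p was 0.734, and without the 7 muscle-bearing libraries 0.27. Its change in females was -3.96 ± 1.76 (adjusted p = 0.153).

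The age changes were set beside those of other animals. In B6 liver on the high-fat diet, where 2993 of 16161 genes (18.5%) were called for age, 8.87% higher and 9.65% lower, 336 of the 909 risen genes that could be matched rose (37% of these and 23.8% of the rises there) and 449 of 919 fell (48.9% and 29.1%), with 3 and 3 called the other way. In TH liver on chow, where 1374 of 16579 (8.29%) were called, 3.72% higher and 4.57% lower, 23% of the 928 risen genes rose (35.9% of the rises there) and 276 of 923 fell (29.9% and 37.4%), with 9 and 4 the other way. Of the 24 genes taken above as the 12 largest rises and falls, 21 were called in the same direction on the high-fat diet and 14 in TH. Igf2bp3 fell by 4.97 ± 0.23 on the high-fat diet and 5.05 ± 0.24 in TH on the log2 scale, and Eln by 2.23 ± 0.20 and 2.12 ± 0.17. The genes not called on the high-fat diet were Csad (-0.15 ± 0.23), Cyp17a1 (-0.19 ± 0.28) and Hamp2 (-0.18 ± 0.20), and the difference between diets was not tested.

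The age change differed between B6 and TH on chow for 202 of 16579 genes (1.22%), 108 more positive in B6 and 94 more negative. Csad was at 32.1 to 131 CPM in the 12 B6 livers at 5 weeks and 94.2 to 402 CPM at 20 weeks, and in TH at 32 to 344 and then 43.6 to 212 CPM (difference 1.64 ± 0.30, adjusted p = 0.0011). Within each sex the B6 ages did not overlap, and the TH ages did. Plekhb1 rose in both strains, less so in TH (1.00 ± 0.10; difference 0.79 ± 0.14, adjusted p = 0.000578), where it was already at a median of 19.6 CPM at 5 weeks against 7.52 CPM in B6. Tiam2 likewise rose by 0.79 ± 0.16 in TH (difference 1.15 ± 0.20, adjusted p = 0.000565).

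Col5a2, a chain of type V collagen, fell in B6 from a median of 9.58 to 6.1 CPM in females and of 8.98 to 3.36 CPM in males. In TH it rose, from a median of 45.9 to 266 CPM in females and of 16.7 to 35.8 CPM in males. The difference between the strains was -2.64 ± 0.23 (adjusted p = 6.3e-11), and Col5a2 was 1 matrix gene called of 29. Zfp809, a zinc finger repressor of retroviral elements, rose in B6 (0.99 ± 0.11) and fell in TH (-0.48 ± 0.11), with a difference of 1.47 ± 0.15 (adjusted p = 9.65e-09). Over the 12 B6 mice of each age it went from 12.6, 17.3 and 25.1 to 18.9, 31.7 and 57.7 CPM. Tuba8, an alpha-tubulin, fell by 0.67 ± 0.18 in B6 and by 2.70 ± 0.35 in TH on the log2 scale (difference 2.02 ± 0.44). Its levels were low, with medians of 3.18 and 2.07 CPM in B6 and of 1.9 and 0.219 CPM in TH at 5 and 20 weeks. The highest 5-week TH library had 7.15 CPM. The change was more positive in B6 for 5 of 23 male-biased genes, among them Mup20 (1.46 ± 0.26) and the terminal complement gene C6 (1.37 ± 0.21), beside 0.651% of all genes. It was more negative in B6 for 4 of 24 female-biased genes, among them Cyp2b9 (-3.20 ± 0.56) and Cyp17a1 (-2.16 ± 0.49), beside 0.567% of all genes. Both had lower medians in TH than in B6 at 5 weeks. Those of Cyp2b9 were 330 and 1.74 CPM in TH females and males, against 563 and 19 CPM in B6. Those of Cyp17a1 were 31.2 and 2.86 CPM in TH, against 173 and 25.7 CPM.

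**Figure D5:**
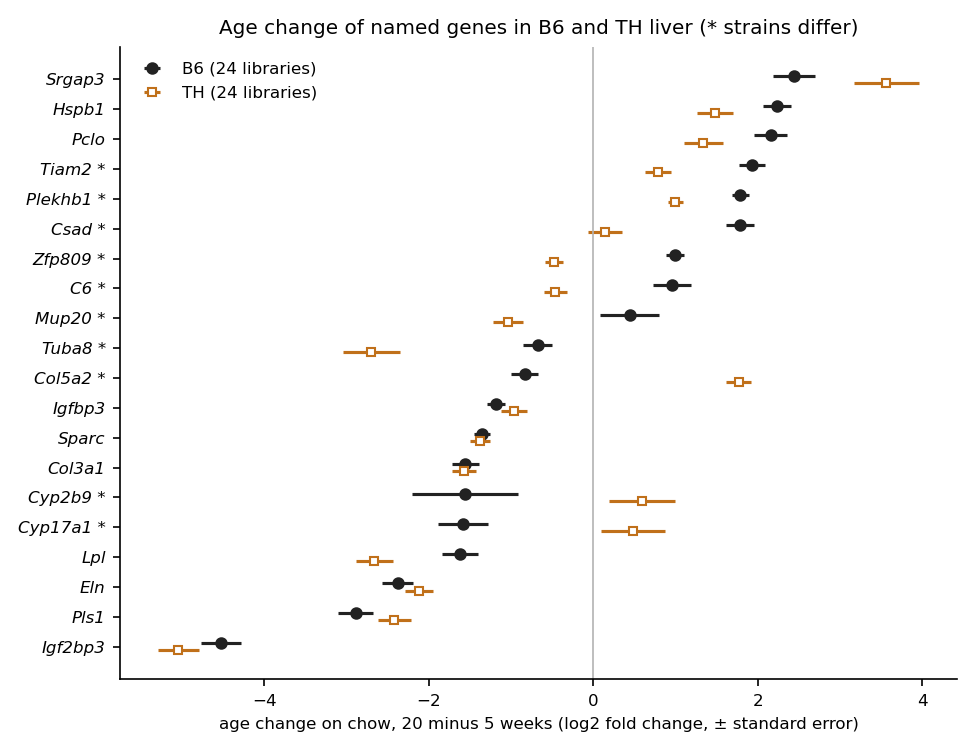
Age change on chow (log2 fold change, bars are standard errors) of 20 named genes in B6 (filled, fitted on its 24 libraries) and TH (open, from the fit of 48 libraries); an asterisk marks genes whose age change differed between the strains. Igf2bp3, Pls1, Eln, Sparc and Col3a1 have similar values in both strains, and Col5a2, Zfp809, Cyp17a1, C6, Mup20 and Cyp2b9 lie on opposite sides of 0. Of these, Mup20 and Cyp2b9 in B6 and Cyp17a1 and Cyp2b9 in TH had changes that were not called.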

How the data were processed

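The authors deposited a table of raw counts per Ensembl gene. The submitters' processing notes name Trimmomatic 0.39, HISAT2 2.2.1, SAMtools, DESeq, DESeq2 and GRCm39; the counting tool, its strand setting and the annotation were not given in the sources used here. Per the labels' protocols, libraries were stranded poly(A) TruSeq from 1000 ng of RNA with a RIN above 8. Symbols matched 52073 of 56980 identifiers. Groups came from the labels.

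The counts were tested with edgeR 4.0.16 (R 4.3.3; TMM factors, filterByExpr with a minimum count of 10, quasi-likelihood test, Benjamini-Hochberg adjustment over all genes tested). Sex plus age was fitted on 24 libraries, and 1 mean per group for the changes within a sex, the sex differences and their change. The strain contrast used 48 chow libraries. The script was tested on simulated data. Promoters came from RefSeq (GRCm38.p6), by symbol.

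The members and gene lists were chosen with earlier results of these data known. Named genes were the 12 largest called rises and falls with age (mean log2 CPM of at least 1, same sign in both sexes), the 6 highest and 6 lowest sex differences and the 5 highest and 5 lowest strain differences in age change, plus list members as examples; not all are described, and some items are not reported here. Replicate numbers did not pair the samples. Alternatives were RLE factors, no filter, DESeq2 1.42.0, a replicate block, all 16 liver groups, a GC covariate, 1 mean per sex and age, and each library left out; the fits without muscle-bearing libraries or with neighbouring tissue covariates, the high-fat comparison and the ranks within 5-week males were chosen after seeing the data.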

Additional observations from a re-analysis of the deposited data

Results flagged for a closer look

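In 17 of 312 group checks over 78 named genes, 1 library stood apart from the other 5 of its group by Dixon's ratio, where chance gives about 1 in 20. Among genes that changed with age these were Sult3a2 in replicate 2 of the 5-week males (0.114 CPM, the highest), Sult3a2 in replicate 3 of the 20-week males (0.143 CPM, the highest), Hspb1 in replicate 2 of the 20-week females (8.33 CPM, the lowest), Pclo in replicate 1 of the 20-week females (3.93 CPM, the lowest), Plekhb1 in replicate 5 of the 20-week males (34.9 CPM, the highest) and Eln in replicate 1 of the 20-week males (3.63 CPM, the highest). Others were Akr1b7 in replicate 6 of the 5-week males (14.5 CPM, the highest), Col1a1 in replicate 5 of the 20-week males (3.36 CPM, the lowest), Hmgcs1 in replicate 2 of the 20-week females (1419 CPM, the highest), Cox5a in replicate 1 of the 20-week females (96.7 CPM, the highest) and F11 in replicate 5 of the 5-week males (85.5 CPM, the lowest), and Cyp4a12a in replicate 4 of the 20-week females (0 CPM, the lowest), Susd4 in replicate 6 of the 20-week males (35.2 CPM, the lowest), Col5a2 in replicate 6 of the 20-week males (8.32 CPM, the highest) and Tuba8 in replicate 4 of the 5-week females (1.39 CPM, the lowest), Ccr3 in replicate 3 of the 20-week males (0.143 CPM, the highest) and Slc25a30 in replicate 5 of the 20-week males (61.4 CPM, the highest).

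Among the named genes whose age change differed between the sexes, by the test of the difference itself, were (male minus female, log2) Cyp2b9 (-5.60), Slc22a26 (-4.34), Akr1b7 (-4.31), Rad51b (-4.24), Asns (3.30), Cyp4a12a (4.61), Hsd3b5 (4.64), Cyp4a12b (4.796), Amy2a3 (7.40), Mup20 (2.74), Cyp7b1 (2.03) and Cyp8b1 (1.80). Others were Slco1a1 (2.13), Susd4 (2.52), Cyp2b10 (-2.19), Cdkn1a (-2.74), Mki67 (-1.94), Top2a (-1.92), Prlr (-1.44), Esr1 (-1.08), Ifi44 (-1.83), Ifit1 (-1.20), Usp18 (-0.94), Dnajb9 (1.47), Mt2 (-4.17), Hamp2 (-1.86), Sult2a7 (-2.76), Tiam2 (1.24) and Serpine2 (2.10). The age change differed between the strains on chow (B6 minus TH, log2) for Cyp2b9 (-3.20), Col5a2 (-2.64), Cyp17a1 (-2.16), Mup20 (1.46), Zfp809 (1.47), Csad (1.64), Tuba8 (2.02), C6 (1.37), Tiam2 (1.15), Plekhb1 (0.79), Susd4 (0.90), Mt2 (-3.42), Ccr3 (-2.79) and Slc25a30 (1.57). Leaving out any of 15 of the 24 libraries ended the call for Mt2 (adjusted p = 0.0469, up to 0.0814), and any of 6 that for Slc25a30 (adjusted p = 0.0375, up to 0.0798). Without the muscle-bearing libraries neither was called (adjusted p = 0.101 and 0.0785), nor was Ccr3 (adjusted p = 0.129). Ccr3 was at 0.08 to 0.57 CPM in B6 at 5 weeks and 0 to 0.14 CPM at 20 weeks. In TH it had 1.49 to 6.06 and then 2.21 to 5.79 CPM, a change of -0.18 ± 0.19.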

How the results depend on the processing

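The count of genes called for age was 1595 to 2685 under the alternative normalization, filter, test and models and 1263 without the 7 muscle-bearing libraries, against 1851; with all 16 liver groups fitted, 1065 rose and 1620 fell. Other counts moved by more than 1.5 times. Without the muscle-bearing libraries, which leaves 2 females at 20 weeks, the age count in females was 393, the sex by age count 234, and the sex counts 334 at 5 and 3398 at 20 weeks. Neighbouring tissue covariates gave 311 for sex by age and 3404 for sex at 20 weeks, no filter on low counts gave 492 for sex by age, the GC covariate gave 486 and 3036 for sex at 5 and 20 weeks, and DESeq2 gave 307 for strain by age; the cause was not tested. With single libraries left out, counts ranged from 1618 to 2535 for age, 1126 to 2121 in males, 1039 (without replicate 4 of the 20-week females) to 2488 (without their replicate 1) in females, 526 (without their replicate 3) to 1355 (without their replicate 1) for sex by age, 572 (without replicate 2 of the 5-week males) to 1343 (without replicate 1 of the 20-week females) for sex at 5 weeks, 5374 to 6597 for sex at 20 weeks and 172 to 263 for strain by age. With the replicate block the age count was 1637; same-numbered samples did not deviate together (36 pairs, r from -0.32 to 0.238, 7 over 0.1), and 19 of 72 best matches shared a number. No named gene changed direction under any alternative run. Genes at a few CPM rest on few reads in these libraries, so their spread is wide.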
